A study of Mus musculus with 472 samples.

Results

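Pou4f3-positive ganglion cells were retinal ganglion cells, the output neurons of the retina, that carried RNA of both Pou4f1 and Pou4f3. They were chosen by the measured levels of these 2 genes: Pou4f1 at 10 CPM or more and Pou4f3 at 10 CPM or more, where CPM is a cell's count of a gene scaled to 1000000 gene counts. Of 472 cells in the series, 385 were Pou4f1-positive, and 108 of these were Pou4f3-positive (28.1%, exact 95% interval 23.6% to 32.8%). The other 277 Pou4f1-positive cells, with Pou4f3 below 10 CPM, are called Pou4f3-negative and form the comparison. All cells came from C57BL/6J mice aged 7 to 9 weeks, with no treatment and no genetic change named in the labels. A cell of the flat-mounted retina was patched, recorded under light spots and aspirated, and its RNA was read with Smart-seq2, a full-length single-cell protocol without molecular identifiers. The recordings were not analysed here. Since no label ties cells to animals, the cells count as 1 sample: nothing was tested, intervals cover counting error only, and the differences describe these cells.

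Pou4f1, Pou4f2 and Pou4f3, also called Brn3a, Brn3b and Brn3c, are POU-homeodomain transcription factors of sensory neurons. In the retina they act in the differentiation and survival of ganglion cells and in the shape of their dendrites, and each is kept in an overlapping part of the adult ganglion cell types. Outside the retina Pou4f3 is best known from the hair cells of the inner ear, where its loss causes deafness.

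Pou4f3 (mm10, chromosome 18, 42394539 to 42397249) ran from 10.02 CPM to 319.1 CPM in the cells it selected, with a median of 59.6 CPM. In the Pou4f3-negative cells it was at 0 counts in 221 of 277 and below 1 CPM in 265. The 3 cells just inside the limit had 10.02, 11.06 and 12.4 CPM, and the 3 just outside had 9.99, 8.85 and 8.32 CPM, so few cells lay near it. The lowest Pou4f3 count of a positive cell was 16 and the median was 315.5.

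Its paralogue Pou4f1 (chromosome 14, 104461676 to 104467999) ran from 14.003 to 398.9 CPM in the Pou4f3-positive cells, with a median of 104.2 CPM, and from 10.5 to 1565 CPM in the Pou4f3-negative cells, with a median of 87.1 CPM. The ranges overlapped. Among the 108 cells the 2 levels went together weakly (Spearman rho 0.15, across cells of 1 sample). Of the 123 Pou4f3-negative cells with Pou4f1 above 104.2 CPM, 99 had no Pou4f3 count, as had 221 of all 277 Pou4f3-negative cells. These cells were chosen for low Pou4f3, so the counts do not show how often a high Pou4f1 level goes without it. Pou4f2 (chromosome 8, 78433010 to 78436645) was at 10 CPM or more in 31.5% of the Pou4f3-positive cells (22.9% to 41.1%) and in 28.2% of the Pou4f3-negative cells (22.9% to 33.9%), and the intervals overlapped.

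**Figure D1:**
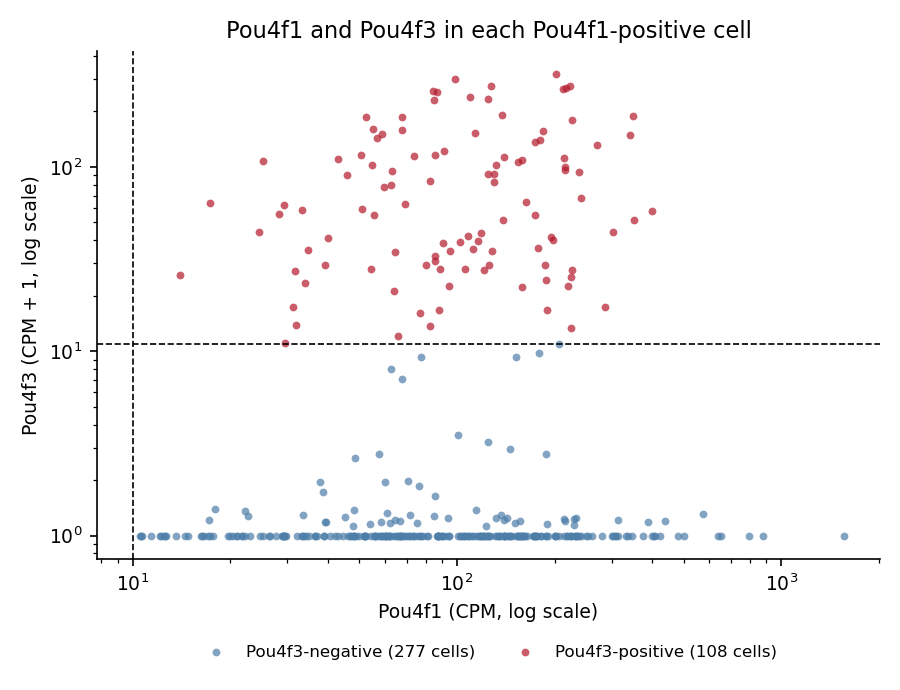
Pou4f3 (CPM + 1) against Pou4f1 (CPM), both on log axes, with 1 point per Pou4f1-positive cell and dashed lines at the 10 CPM limits that chose the cells. The 108 Pou4f3-positive cells spread over 10.02 to 319.1 CPM of Pou4f3 at all but the highest Pou4f1 levels, and 221 of the 277 Pou4f3-negative cells lie at 0.

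The Pou4f3-positive cells carried the general genes of ganglion cells. All 108 were positive, meaning at 10 CPM or more, for at least 6 of 12 such genes, as were 275 of the 277 Pou4f3-negative cells. The neurofilament genes Nefl and Nefm, the vesicular glutamate transporter gene Slc17a6 and the RNA-binding protein gene Rbpms were positive in all 108, and in 277, 272, 262 and 257 of the 277 Pou4f3-negative cells. Others of the 12 were less common. Gap43 was positive in 91.7% and 81.9% of the sets, Elavl4 in 89.8% and 74.7%, and Isl1 in 81.5% and 80.5%.

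The sets differed in how many genes were detected. Pou4f3-positive cells had a median of 6249.5 positive genes (2808 to 8165), and Pou4f3-negative cells 5430 (465 to 8937). With each cell thinned to 1000000 gene counts the medians were 6316 in 105 cells and 5468 in 274 cells. When the cells were ranked by positive genes and split into 10 bins of near-equal size, Pou4f3-positive cells were 1 of 39 in the lowest bin, 22 of 39 in bin 6 (56.4%, 39.6% to 72.2%) and 18 of 39 in the highest. Gene counts had medians of 5862258.5 and 4977823, spike-in RNA took 0.544% and 0.760% of counts, mitochondrial genes 0.286% and 0.354%, and ribosomal RNA loci 15.4% and 16.9%. Detection therefore moved with the split between the sets, and its part in the gene differences cannot be told from the pooled cells. For this reason each difference is also given within these detection bins, averaged over bins, a choice made after the data were seen.

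**Figure D2:**
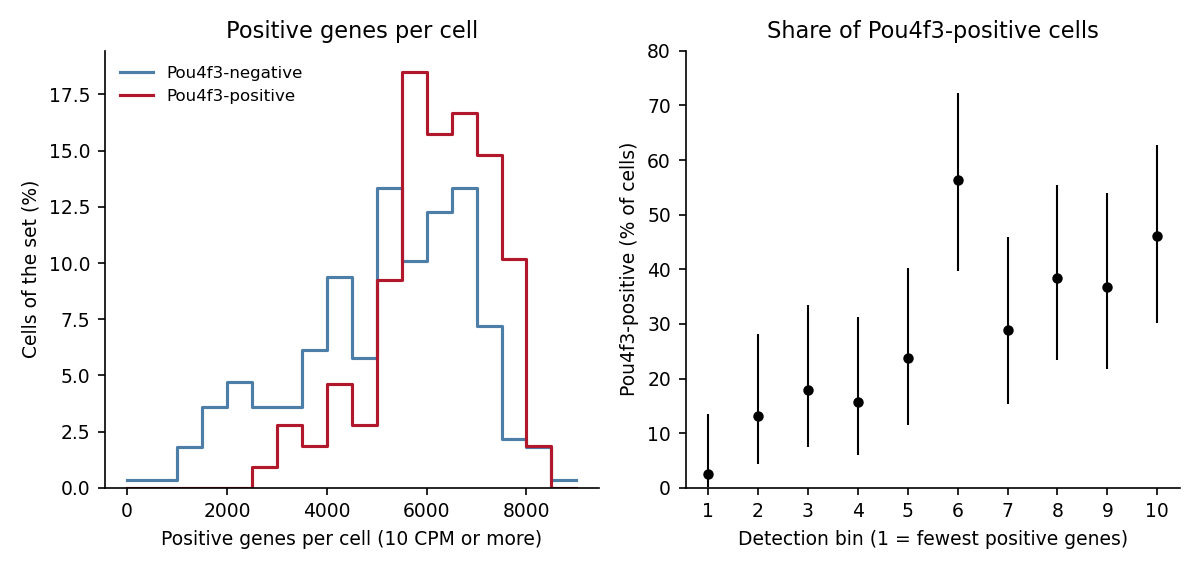
Left, positive genes per cell as the percentage of cells in each set per bin of the same width; right, the percentage of Pou4f1-positive cells that were Pou4f3-positive in each of 10 bins of positive genes, with exact 95% intervals. Pou4f3-positive cells lie further to the right, and their share is 2.56% in the lowest bin and 56.4% in bin 6.

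Across 11275 genes, each positive in at least 10% of the Pou4f1-positive cells, the pooled difference of mean log2(CPM + 1) was above 0 for 90.8% of genes, with a median of 0.49. A difference of at least 1 was called: 1243 genes (11%) were higher and 3 (0.0266%) were lower in the Pou4f3-positive cells. Within bins the median was 0.00. By that measure 34 genes (0.302%) were higher and 25 (0.222%) lower, and all 34, and 3 of the 25, were among the pooled calls. Of the 34, 31 had the same sign in each of 3 detection classes of near-equal size, from low to high numbers of positive genes. For 32 the sign was the same in each of runs A to D. Runs were read from library names, and these 4 had at least 5 cells in both sets. Of the 25 lower genes, 20 had the same sign in each class and 7 in each of the 4 runs. The genes were picked by their values in these same cells, so agreement of sign follows in part from the choice. Detection also varied inside a class, as the low class ran from 465 to 5035 positive genes. Differences by run are pooled within the run and not matched for detection, so they share the upward shift of the pooled differences, and these counts do not compare how the higher and lower genes vary between runs. Of the 34 higher genes, Cartpt, Trp53i11 and Col6a1 were below 0 in the class of fewest positive genes, Chrm1 in run C and Sh3bp4 in run B.

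**Figure D3:**
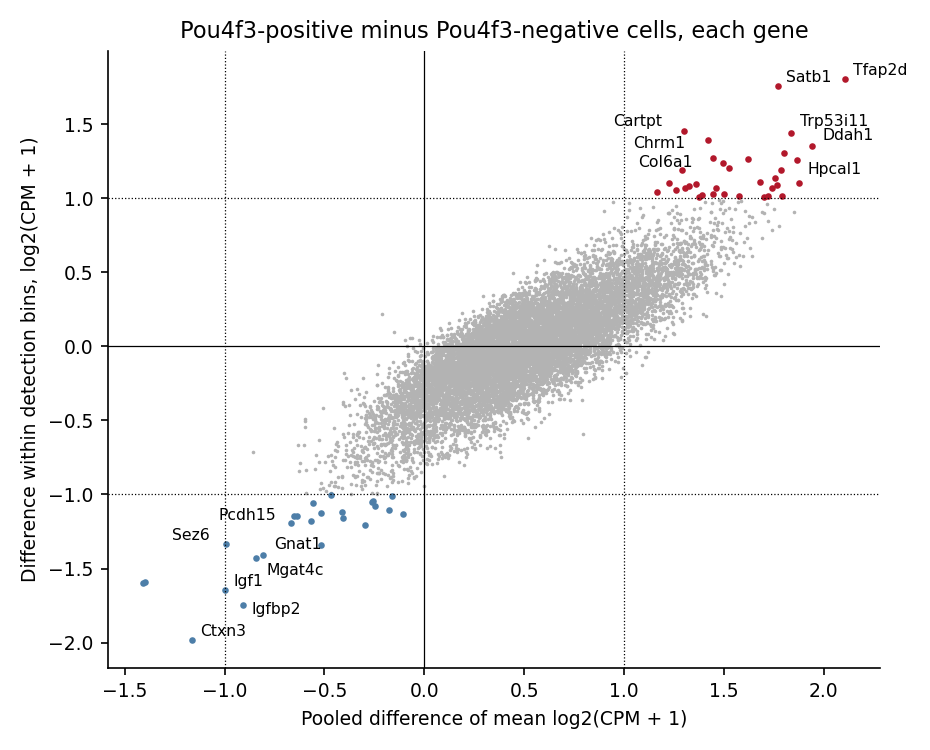
Difference of mean log2(CPM + 1), Pou4f3-positive minus Pou4f3-negative cells, pooled on the horizontal axis and within detection bins on the vertical axis, with 1 point per gene for 11275 genes. Dotted lines mark differences of 1; the 34 higher genes are red, with Tfap2d at 2.10 and 1.81 and Satb1 at 1.77 and 1.76, and the 25 lower genes are blue.

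The largest differences within bins were those of Tfap2d and Satb1, which both encode transcription regulators. Tfap2d (chromosome 1, 19103022 to 19166346) encodes the AP-2 delta factor, known from subsets of ganglion cells. It was positive in 61.1% of Pou4f3-positive cells (51.3% to 70.3%) and in 31.4% of Pou4f3-negative cells (26.0% to 37.2%). Its level ran from 0 to 311.2 CPM around a median of 36.7 CPM in the first set and from 0 to 388.9 CPM around 0.23 CPM in the second. The ranges overlapped, and the sets differed in how many cells carried it. Mean log2(CPM + 1) was 4.23 (SD 2.96) against 2.13 (SD 2.75), a difference of 2.10, or 1.81 within bins. Runs A to E gave differences of 1.88, 2.19, 3.45, 1.92 and 1.19.

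Satb1 (chromosome 17, 51736187 to 51833290), which encodes a chromatin organiser known from direction-selective ganglion cells, was positive in 66.7% of Pou4f3-positive cells (56.9% to 75.4%) and 40.8% of Pou4f3-negative cells (35.0% to 46.8%). Its median was 41.8 CPM (0 to 886.7) against 1.49 CPM (0 to 1108). The difference of mean log2(CPM + 1) was 1.77 pooled and 1.76 within bins. In the low, middle and high detection classes it was 1.81, 1.69 and 1.68, and by run it lay between 0.35 in E and 2.57 in C. Satb1 thus differed about equally at low and high detection. Exons of Tfap2d overlap Gm15825 and those of Satb1 overlap Gm36931 and Gm6934, and Smart-seq2 reads do not carry strand, so reads of the overlaps cannot be told apart.

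Tfap2d and Satb1 were also counted together in each cell. Both were positive in 48 of the 108 Pou4f3-positive cells (44.4%, 34.9% to 54.3%), where independent shares give 44 (rho 0.31 across 108 cells). In Pou4f3-negative cells both were positive in 17.7% (13.4% to 22.7%). Neither was positive in 16.7% of Pou4f3-positive (10.2% to 25.1%) and 45.5% of Pou4f3-negative cells (39.5% to 51.6%). These shares follow in part from the shares of each factor alone. Runs A to E held 27, 10, 7, 4 and 0 of the cells with both. Among all Pou4f1-positive cells, 49.5% of those with both factors were Pou4f3-positive (39.2% to 59.8%), as were 12.5% of those with neither (7.58% to 19.0%). Cells with Satb1 and no Tfap2d made up 22.2% and 23.1% of the 2 sets, and cells with Tfap2d and no Satb1 16.7% and 13.7%. The sets differed in the cells with both or neither, and the intervals overlapped for those with 1 of the pair. In the low, middle and high detection classes, both factors were positive in 20%, 45.2% and 51.0% of Pou4f3-positive cells and in 15.04%, 15.3% and 24.1% of Pou4f3-negative cells. The low class held 15 Pou4f3-positive cells.

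Of 33 listed class transcription factors 26 were compared, and Tfap2d and Satb1 were the 2 called within bins (median of the list -0.07, against 0.00 for all genes). Of all genes 0.302% were called higher within bins. Irx6, an Iroquois factor, was positive in 48.1% and 30.3% of the sets, with a difference of 1.14 pooled and 0.53 within bins. At the other end Tbr1, a T-box factor of several ganglion cell types, was positive in 11.1% of Pou4f3-positive cells (5.87% to 18.6%) and 22.4% of Pou4f3-negative cells (17.6% to 27.8%). In the high detection class the shares of Tbr1 were 11.8% and 35.4%. Its difference was -0.46 pooled and -0.77 within bins, and its sign was positive in run C.

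Cartpt (chromosome 13, 99898489 to 99901091), which encodes the CART neuropeptide and marks ON-OFF direction-selective cells, was positive in 74.1% of Pou4f3-positive cells (64.8% to 82.0%) and 57.8% of Pou4f3-negative cells (51.7% to 63.6%). The median was 61.6 CPM (0 to 2893) against 20.7 CPM (0 to 5351). The difference was 1.30 pooled and 1.46 within bins, from -0.17 in run E to 2.23 in run B. In the low detection class it was -0.36, so the direction did not hold there. Cartpt was 1 of 3 compared genes of the direction-selective list of 5: Cdh6, a cadherin, was positive in 42.6% and 32.9% (difference within bins 0.68) and Col25a1, a transmembrane collagen, in 19.4% and 13.7% (0.20). Satb1, Tfap2d and Cartpt were positive together in 41.7% of Pou4f3-positive cells (32.3% to 51.5%) and 14.1% of Pou4f3-negative cells (10.2% to 18.7%).

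The muscarinic M1 receptor gene Chrm1 (chromosome 19, 8663789 to 8683587) was positive in 34.3% of Pou4f3-positive cells (25.4% to 44.0%) and 12.3% of Pou4f3-negative cells (8.65% to 16.7%), with a median of 0 CPM in both and highest values of 557.7 and 487.2 CPM. Its difference was 1.42 pooled and 1.39 within bins, with 1.93, 1.27 and 0.39 in runs A, B and D and -0.37 in C. Without run A the pooled difference was 0.82, below the call. It was the 1 gene called within bins of 12 compared acetylcholine, dopamine and serotonin receptor genes (list median 0.22), where 0.302% of all genes were called higher. The nicotinic subunit gene Chrna3 was positive in 42.6% and 27.8%, with differences of 0.90 and 0.91. Drd1, the D1 dopamine receptor gene, had 1.09 pooled and 0.37 within bins.

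Among the other higher genes, Trp53i11, a gene induced by p53, was positive in 47.2% and 18.1% of cells, with differences of 1.84 pooled and 1.44 within bins. Ddah1, whose product breaks down an inhibitor of nitric oxide synthase, was positive in 95.4% and 72.6% (1.94 and 1.35). Hpcal1, a neuronal calcium sensor gene, was positive in 78.7% and 53.4%, with medians of 104.4 and 32.4 CPM (1.87 and 1.26). Ddah1 was common in both sets, whereas Trp53i11 marked a minority of either.

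Fam49a, which encodes a Rac1-binding protein and overlaps 4921511I17Rik, differed by 1.80 pooled and 1.30 within bins, and Nf2, the merlin gene, by 1.79 and 1.19. Crhbp, which encodes a binding protein of corticotropin-releasing hormone, was positive in 64.8% and 39.7% (1.62 and 1.26), and Col6a1, a collagen VI chain gene, in 38.9% and 17.3% (1.45 and 1.27). Cpne6, a copine gene, had 1.495 and 1.24. Crhbp, Col6a1 and Cpne6, and the lower genes named further on other than the 7SL genes and list members, were singled out by their values within bins after these had been seen.

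Other genes that led the pooled ranking had smaller differences within bins. They were Ankrd34a (1.88 pooled, 1.10 within bins), the presynaptic gene Rims3 (1.79 and 1.02), the ESCRT genes Ubap1 (1.85 and 0.91) and Chmp6 (1.77 and 1.09), the plakoglobin gene Jup (1.72 and 1.02), the endosomal SNARE gene Stx7 (1.78 and 0.81), the kinesin-2 gene Kif3c (1.69 and 0.73) and Gars, a tRNA synthetase gene (1.74 and 0.79). Kif3c shares exon sequence with 1110002L01Rik and Gm48512. Ubap1, Stx7, Kif3c and Gars were no longer called within bins. In the high detection class Gars was positive in 100% of both sets and Kif3c in 94.1% and 94.9%.

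The lower genes included growth factor and surface genes. Igf1 (chromosome 10, 87858265 to 87937042), insulin-like growth factor 1, was positive in 34.3% of Pou4f3-positive cells (25.4% to 44.0%) and 49.5% of Pou4f3-negative cells (43.4% to 55.5%), with medians of 0.71 CPM (0 to 778.9) and 9.05 CPM (0 to 1191). Its difference was -0.999 pooled, short of the call, and -1.64 within bins, negative in runs A, B, D and E and 0.38 in C. The binding protein gene Igfbp2 was positive in 25.9% and 35.4% (-0.91 and -1.75). Both genes were lower in each detection class.

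Mgat4c, a glycosyltransferase gene, was positive in 41.7% and 56.7% of cells, with differences of -0.84 pooled and -1.43 within bins, but 0.67 in run D. Sez6, which encodes a synaptic membrane protein, was positive in 48.1% and 61.7% (-0.99 and -1.33). Ctxn3, a cortexin gene, had -1.16 and -1.98, with 0.61 in run B. The protocadherin gene Pcdh15, best known from the tip links of hair cells, was positive in 9.26% and 20.9% (-0.65 and -1.15), and the collagen gene Col11a1 in 11.1% and 23.1% (-0.67 and -1.20). Without run A the pooled difference of Col11a1 was 0.11, where the median over all genes was 0.54. Its sign there does not show its direction at like detection, since differences within bins were not computed without run A. The pooled differences of other lower genes were smaller in size without run A: -0.58 for Igf1, -0.60 for Igfbp2, -0.47 for Mgat4c and -0.74 for Ctxn3. Sez6 had -1.39. These values are not matched for detection either.

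**Figure D4:**
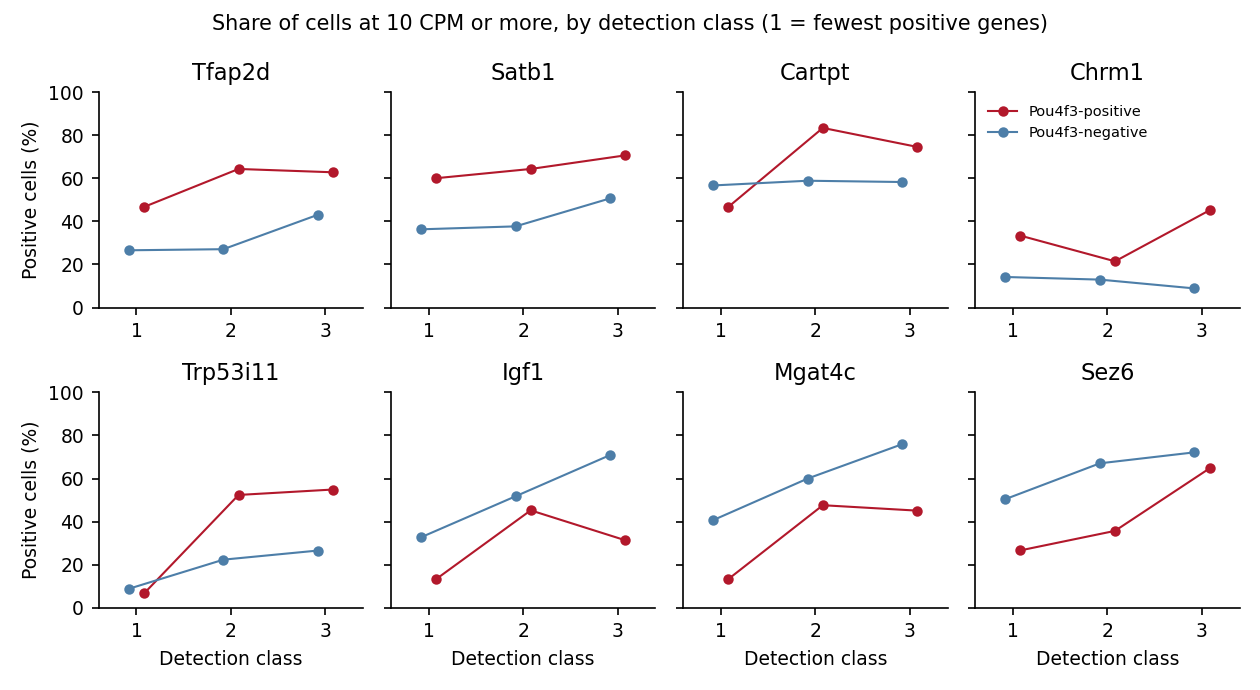
Percentage of cells at 10 CPM or more for 8 genes, in Pou4f3-positive (red) and Pou4f3-negative (blue) cells, by detection class from fewest (1) to most (3) positive genes. Tfap2d and Satb1 lie higher and Igf1, Mgat4c and Sez6 lower in the Pou4f3-positive cells in each class, while Cartpt and Trp53i11 are higher in classes 2 and 3; class 1 holds 15 Pou4f3-positive cells.

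Rod photoreceptor genes were also on the lower side. All 10 listed rod genes had differences below 0 within bins (median -0.83), and 1, the rod transducin gene Gnat1, was called (-1.41, and -0.81 pooled). Of all genes 0.222% were called lower within bins. Lists of other retinal cells leaned the same way, with medians of -0.46 for cone, -0.45 for bipolar, -0.45 for Müller glia, -0.44 for horizontal and -0.40 for amacrine genes. In these lists 0 of 4, 2 of 9, 1 of 8, 1 of 5 and 4 of 9 genes were above 0. A lower difference was thus not particular to rod genes. Prph2, Rcvrn, Guca1a, Abca4 and Rbp3, which are known from photoreceptors, were also among the 25 lower genes, as found after their values were seen. Patched cells of both sets carried rod RNA: 67.6% of Pou4f3-positive and 63.5% of Pou4f3-negative cells had 3 or more rod genes at 10 CPM, the summed rod level ran from 1.86 to 127606 CPM around a median of 321.5 CPM in the first and from 0 to 87368 CPM around 611.1 CPM in the second, and no rod marker was at 0 in all cells. Without cells that had 3 or more rod genes, which left 35 Pou4f3-positive cells, Gnat1 stood at -0.40 and Prph2 at -0.13 within bins. The same cells gave -2.13 for Igf1, -1.89 for Igfbp2, -1.68 for Mgat4c, -1.44 for Sez6 and -2.52 for Ctxn3, each at least as large in size as with all cells. Pcdh15 was at -0.75 in them, and Rn7s1 and Rn7s2 at -0.51, short of the call. Of the higher genes, they gave 1.44 for Tfap2d, 1.89 for Satb1, 2.32 for Cartpt and 2.17 for Chrm1, while Crhbp at 0.93, Ankrd34a at 0.85 and Jup at 0.35 were no longer called.

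Markers of other retinal cells were found in both sets. At least 3 markers were positive for bipolar cells in 60.2% of Pou4f3-positive and 52.3% of Pou4f3-negative cells, for amacrine cells in 70.4% and 63.2%, for Müller glia in 86.1% and 79.8%, for cones in 11.1% and 13.4%, and for microglia in 4.63% and 3.61%. The summed levels had medians of 271.7 and 341.5 CPM for bipolar cells, 760.6 and 762.5 CPM for amacrine cells, and 929.0 and 993.0 CPM for Müller glia. The bipolar and amacrine lists hold genes that ganglion cells also express, among them Isl1, Grik1, Prkca and Pax6. Leaving out cells with 3 or more bipolar, cone or amacrine markers left 19 Pou4f3-positive cells, which gave 3.84 for Tfap2d, 2.22 for Satb1, 2.97 for Cartpt, 2.55 for Chrm1 and -2.32 for Igf1 within bins. Col6a1 at 0.77, Fam49a at 0.82, Nf2 at 0.77 and Jup at 0.57 were no longer called in them.

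The small RNA genes Rn7s1 and Rn7s2, which encode the 7SL RNA of the signal recognition particle, were 2 of the 3 genes lower in the pooled cells (-1.40 and -1.41), both at a share of 54.6% against 63.2%. They are near-identical copies that overlap other annotated genes, so their counts are uncertain.

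The class makeup of the Pou4f3-positive cells was mixed. The Spp1 and Kcng4 pair of large alpha cells was met in 25.9% of them and in 22.7% of Pou4f3-negative cells, melanopsin-class genes (Opn4 or Eomes) in 13.0% and 15.5%, and Foxp2, or Foxp1 with Irx4, in 13.9% and 11.9%. The intervals of these pairs overlapped. Irx3 without Eomes was met in 21.3% (14.005% to 30.2%) and 8.66% (5.63% to 12.6%), where the intervals lay apart. Col25a1 with Cdh6 was met in 19.4% (12.5% to 28.2%) and 9.39% (6.22% to 13.5%), where the intervals overlapped. Mmp9 with Htr1d was met in 32.4% and 22.7%, and Hpcal4 with Kctd8 in 28.7% and 20.6%, and the intervals overlapped for both. In the low, middle and high detection classes Mmp9 with Htr1d was met in 33.3%, 21.4% and 41.2% against 15.9%, 25.9% and 29.1%. Hpcal4 with Kctd8 was met in 0 of 15 cells (which allows up to 20%), 28.6% and 37.3% against 6.19%, 21.2% and 40.5%. Neither direction held in all classes. Each of these rules took in at most 32.4% of all Pou4f3-positive cells, and the rules were not exclusive. With Tbr1 counted as a rule, 34.3% of Pou4f3-positive and 25.3% of Pou4f3-negative cells met 2, and 8.33% and 24.2% met none. The sets also differed in detection, and its part in these shares was not tested.

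With each cell thinned to 1000000 gene counts, which left the difference in positive genes, Irx3 without Eomes stood at 21.0% and 7.66%, and Col25a1 with Cdh6 at 21.9% and 9.85%. In the low, middle and high detection classes the Irx3 shares were 0 of 15 cells (which allows up to 20%), 28.6% and 21.6% in Pou4f3-positive cells and 4.42%, 14.1% and 8.86% in Pou4f3-negative cells, and the Col25a1 and Cdh6 shares were 6.67%, 19.0% and 23.5% against 7.96%, 14.1% and 6.33%. In the low class neither rule was more common among the few Pou4f3-positive cells. Of the Irx3 cells 48.9% were Pou4f3-positive (34.1% to 63.9%), of the Tbr1 cells 16.2% (8.67% to 26.6%), and of all Pou4f1-positive cells 28.1%.

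**Figure D5:**
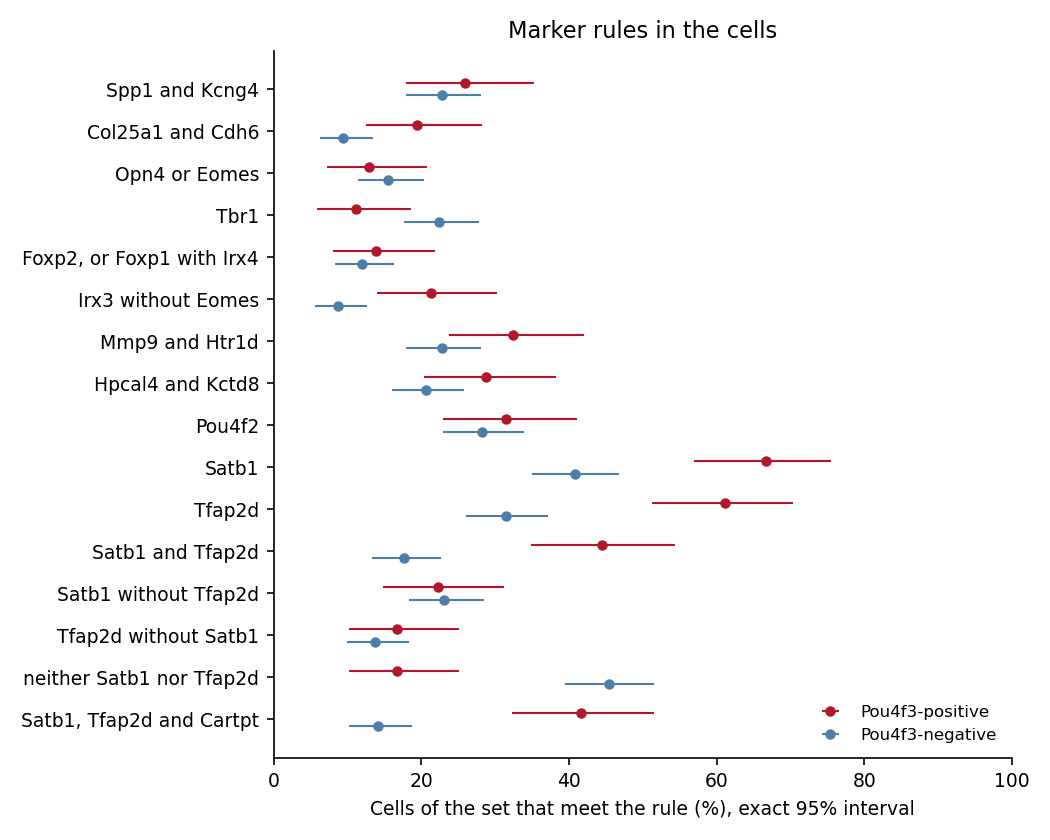
Percentage of Pou4f3-positive (red) and Pou4f3-negative (blue) cells that meet each marker rule at 10 CPM, with exact 95% intervals. The intervals lie apart at neither Satb1 nor Tfap2d (16.7% and 45.5%) and at Satb1, Tfap2d and Cartpt (41.7% and 14.1%), and the intervals overlap for Spp1 with Kcng4, Pou4f2 and the melanopsin-class rule.

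Within the Pou4f3-positive cells the leading genes fell into different company. Satb1 and Cartpt were positive together in 63 cells, where independent shares give 53.3 (rho 0.58 across 108 cells), Satb1 and Cdh6 in 40 against 30.7 (rho 0.54), and Cartpt and Cdh6 in 43 against 34.1 (rho 0.54). Chrm1 met Spp1, the osteopontin gene of alpha cells, in 29 cells against 17.5 (rho 0.46), whereas Cartpt and Spp1 met in 32 against 37.8 (rho -0.35). Igf1 and Mgat4c met in 25 cells against 15.4 (rho 0.45). These pairs were chosen from the counts themselves, and all cells share 1 sample and differ in depth.

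Split by the 2 pairs, 52 Pou4f3-positive cells (48.1%) had Satb1 and Cartpt without the pair of Spp1 and Chrm1, 18 (16.7%) had Spp1 and Chrm1 without the first pair, 11 (10.2%) had both pairs and 27 (25%) neither. In the Pou4f3-negative cells the shares were 28.2%, 6.86%, 1.08% and 63.9%. The median number of positive genes was 6219, 6636.5, 7440 and 5971 in the 4 groups of Pou4f3-positive cells. It was 5430 in all Pou4f3-negative cells, so detection moved with these shares and its part was not tested. Pou4f3 itself had medians of 59.4, 57.8, 90.3 and 61.4 CPM in the 4 groups of Pou4f3-positive cells, so its level was alike in all but the cells with both pairs. Of the 18 Spp1 and Chrm1 cells 14 came from run A and none from runs B and C, so that group rests mainly on 1 run.

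The 18 cells carried some genes of the alpha list and lacked others. Kcng4, a silent potassium channel subunit gene, was positive in 16 of 18 (88.9%) and in 9.62% of the 52 Satb1 and Cartpt cells, and the sodium channel beta subunit gene Scn4b in 83.3% and 28.8%. The heavy neurofilament gene Nefh had medians of 528.7 and 67.3 CPM, and the calcium-binding gene Pvalb 201.0 and 33.9 CPM. Fes, a tyrosine kinase gene of the same list, was positive in 2 of 18 (11.1%) and in 3.85% of the 52, and Il1rapl2 in 0 of 18 (which allows up to 16.7%). Coch, an extracellular protein gene also on the F-type list, was positive in 88.9% and 26.9%. The 52 cells in turn had Cdh6 in 59.6% against 5.56%, Trp53i11 in 57.7% against 0 of 18 (which allows up to 16.7%), Mmp9 in 57.7% against 11.1%, Hpcal4 in 51.9% against 5.56%, Col6a1 in 46.2% against 5.56% and Col25a1 in 28.8% against 5.56%. Ret was at a like share in both, 65.4% and 66.7%, and Tfap2d was positive in 67.3% and 44.4%. The groups were split by pairs picked from these same cells. Cdh6 and Trp53i11 went with Cartpt across the Pou4f3-positive cells (rho 0.54 and 0.49), so their contrast follows in part from the split. The same groups of Pou4f3-negative cells were not profiled, so these traits are not shown to be particular to Pou4f3-positive cells.

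The receptor tyrosine kinase gene Ret, listed as a gene of POU4F-expressing sensory neurons and of GDNF signalling, was positive in 57.4% of Pou4f3-positive cells (47.5% to 66.9%) and 38.3% of Pou4f3-negative cells (32.5% to 44.3%). Its difference was 1.04 pooled and 0.71 within bins, positive in runs A to D and in each detection class, but below the call within bins. Of the 18 listed genes of that sensory programme 8 were compared. Of these 1 was called higher pooled, where 11% of all genes were, and 0 within bins, where 0.302% were (list median -0.16). Within bins Bdnf, a neurotrophin gene, was at 0.47, Ntrk2, its receptor gene, at -0.07 and Prph, the peripherin gene, at -0.57. Of 9 compared neurotrophic receptor and ligand genes none was called within bins (median 0.02).

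Adhesion and guidance genes went both ways. Of 31 compared adhesion genes 1, the protocadherin gene Pcdh17, was called higher within bins (positive in 47.2% and 26.4%, difference 1.08) and Pcdh15 lower, with a list median of -0.06. Of all genes 0.302% were called higher and 0.222% lower within bins. Of 28 guidance genes none was called within bins (median -0.07). The semaphorin and VEGF receptor gene Nrp2 was positive in 44.4% and 27.8% (1.22 pooled, 0.90 within bins), and the ephrin receptor gene Epha7 in 17.6% and 22.7% (-0.36 and -0.87).

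Ion channel, glutamate receptor, GABA receptor and glycine receptor genes had list medians near the 0.00 of all genes within bins. Within bins 0 of 9 sodium channel genes, 0 of 35 potassium channel genes, 0 of 19 calcium and HCN channel genes, 0 of 17 glutamate receptor genes and 0 of 17 GABA and glycine receptor genes were called, and the list medians lay between -0.07 and 0.06. The shares over all genes within bins were 0.302% called higher and 0.222% called lower, so lists of these sizes would hold few calls or none. The absence of calls therefore does not set these lists apart from other genes. In simulated data the call within bins found 23 of 100 genes raised 2-fold and 18 of 100 lowered 2-fold, so it misses most differences of that size. The pooled calls included 3 of the 35 potassium channel genes, where 11% of all genes were called higher. These were Kcnc2, Kcna1 and Kcnab2, at 1.11, 1.07 and 1.03, whose differences within bins were 0.60, 0.45 and 0.36. Kcnk1, a two-pore potassium channel gene, had -0.84 within bins and Grin2a, an NMDA receptor subunit gene, 0.80.

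Of 15 calcium-binding protein genes 4 were called higher pooled, where 11% of all genes were, and 1, Hpcal1, within bins, where 0.302% were (list median 0.20). Calb2, the calretinin gene, was positive in 99.1% and 93.5% of cells, with medians of 1080 CPM (highest 9454) and 726.4 CPM (highest 8699), and differed by 1.03 and 0.92. Ncald, neurocalcin delta, had 1.47 and 0.79, and Calb1, calbindin, -0.38 and -0.74. The 6 compared genes of the alpha list were all below 0 within bins (median -0.47, from -0.99 for Fes to -0.17 for Nefh), and none was called.

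The level of Pou4f3 within its cells was set beside these genes. In bands of 10 to 30, 30 to 100 and over 100 CPM (28, 42 and 38 cells), Tfap2d was positive in 50%, 61.9% and 68.4%, Satb1 in 64.3%, 69.0% and 65.8%, Cartpt in 71.4%, 73.8% and 76.3%, and Ret in 50%, 52.4% and 68.4%. The axonal adhesion gene Cntn2 went the other way, 89.3% (71.8% to 97.7%), 52.4% and 47.4% (31.0% to 64.2%), as did Prkca, protein kinase C alpha, with 78.6% (59.0% to 91.7%), 54.8% and 36.8% (21.8% to 54.0%), and Kcnh2, an ERG potassium channel gene, with 71.4%, 57.1% and 36.8%. The median number of positive genes was 6906, 6249.5 and 5923 along the bands (rho -0.39 between Pou4f3 and positive genes over 108 cells), so detection moved with these shares and its part was not tested. Among the listed genes no rho with Pou4f3 lay above 0.28 (Tpm3) or below -0.30 (Cntn2), which is weak.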

How the data were processed

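Per the labels' protocols, single ganglion cells were patched, aspirated and amplified with Smart-seq2 and sequenced as 150 bp paired reads. The authors deposited estimated counts per gene and cell for 55450 genes and 92 spike-ins; 1.36% of values were not whole and all were rounded first. Reads were aligned with STAR 2.7.0 to mm10, per the submitters' processing notes; the sources used here name neither the quantifier nor the annotation. Positions are from GENCODE mouse release M21 on mm10. Library names gave 5 runs (A to E, with 59, 24, 10, 12 and 3 Pou4f3-positive cells). A run was read as flow cell and lane, or as an order number where a name lacks these. Whether the runs are batches is not stated.

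CPM values are counts per 1000000 gene counts of a cell, spike-ins left out; 10 CPM made a gene positive. Gene counts per cell ran from 317310 to 13004880 in the 385 cells. Differences are of mean log2(CPM + 1), Pou4f3-positive minus Pou4f3-negative, and a size of at least 1 was called; Pou4f1 and Pou4f3 were left out. Within bins means the mean of differences in 10 bins of positive genes, weighted by cell numbers, without the lowest bin (39 cells, 1 of them Pou4f3-positive). The text names the 15 genes of largest run-balanced difference per direction with 1 sign in runs A to D, listed genes (all of lists up to 14 genes, otherwise the 4 highest and 3 lowest), and others marked as chosen after their values were seen; Mmp9, Htr1d, Hpcal4, Kctd8, Cntn2, Ncald and the genes of the subset profiles are also of this kind. Members and the 33 gene lists were chosen with earlier results of these data known. Some genes that this rule allows are not reported here. Shares carry exact (Clopper-Pearson) 95% intervals; a share of 0 carries in their place the limit that 3 counts allow. No doublet caller was run, since cells were picked singly; the highest correlation between 2 compared cells was 0.669. R 4.3.3 with edgeR 4.0.16 gave library scaling (TMMwsp) as an alternative; the rest used pandas 2.3.3, scipy 1.17.1 and numpy 2.4.6 in Python 3.11.15. The code was tested on simulated data.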

Additional observations from a re-analysis of the deposited data

Results flagged for a closer look

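Outside the cells compared, 7 cells had Pou4f3 at 10 CPM or more with Pou4f1 below 10 CPM. This was flagged as a signal in cells that no comparison used. Their Pou4f3 levels were 673.4, 335.4, 165.2, 90.7, 50.5, 19.1 and 18.3 CPM, and their Pou4f1 levels were 0.43, 0.79, 5.03, 9.21, 4.04, 0.15 and 1.65 CPM, in the same order. Of the 7, 4 were from run A, 2 from run D and 1 from run B. They had between 1287 and 6587 positive genes, and the cell with the highest Pou4f3 level had the fewest, with Rbpms at 2.16 CPM and Slc17a6 at 0.65 CPM. The cell at 335.4 CPM carried Tfap2d at 198.4 CPM and Cartpt at 722.3 CPM, and Satb1 was below 10 CPM in all 7.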

How the results depend on the processing

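The pooled counts depended on the settings. With both Pou4f genes cut at 50 CPM there were 55 Pou4f3-positive cells, with 556 genes higher and 8 lower; with cells of at least 3000 positive genes 224 and 7; with TMMwsp scaling 679 and 8; with a pseudocount of 10, 15 higher; and without ribosomal RNA and mitochondrial totals 5 lower. Without run A there were 49 cells, 2375 higher and 7 lower, and without runs B and C 6 and 5 were lower. Without cells carrying bipolar, cone or amacrine markers 19 cells remained, with 2994 higher and 92 lower, and within bins 881 higher and 1026 lower. Within the 10 bins 34 genes were higher and 25 lower, within runs and 5 bins of positive genes 74 and 30, within bins without run D 38 and 29, without cells with rod markers 305 and 394, and at 50 CPM 103 and 90. Small sets give wider differences by construction, and the cause of the other shifts was not tested. Over 21 alternatives each, Tfap2d lay between 1.12 and 3.84, Satb1 between 0.99 and 2.22 and Cartpt between 0.94 and 2.97. Kif3c turned to -0.033 within bins without cells with rod markers, and Prph2 to 0.03 within bins without cells with bipolar, cone or amacrine markers. No paired analysis was possible because the cells form 1 group.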
